A study of Mus musculus with 6 samples.

Results

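Translation initiation and elongation factors are the proteins that load ribosomes onto mRNA and move them along it. Here they were taken as the protein-coding genes whose symbol begins with Eif1 to Eif6, or with Eef1 or Eef2, and whose row is in the deposited count table. The rule found 67 genes of 38561 in the table. A count was present for 66 of them and 65 had enough counts to be tested. Eef1akmt4, which also fits the rule in the annotation, was not matched to a row. The rule takes in regulators that share the prefix, such as kinases, inhibitors and lysine methyltransferases.

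Male CD-1 mice, an outbred stock, met either pups or a control exposure, and ribosomes carrying phosphorylated S6, a protein of the small subunit, were pulled down by antibody from lysates of the vomeronasal organ. Each exposure gave 3 libraries (here called pup libraries and control libraries), and the labels describe neither the control nor the age of the animals. They do not say either whether a library came from 1 animal or a pool, so a p-value speaks only of the spread among these 6 libraries, which may be technical. Library totals were 10590716 to 11240065 counts in control libraries and 18199476 to 20871266 in pup libraries, so depth was separated by group. Omp, the marker of mature sensory neurons, was at 664 to 922 CPM in the 6 libraries, and the vomeronasal G proteins Gnai2 and Gnao1 were at 37.0 CPM or more in each. CPM is the count of a gene scaled to library totals adjusted by TMM factors.

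Initiation starts when eIF2 brings the initiator tRNA to the small ribosomal subunit, together with eIF1, eIF1A, eIF3 and eIF5. The eIF4F complex recruits this assembly to the capped end of an mRNA, and eIF5B joins the large subunit. eEF1A then delivers each aminoacyl-tRNA and eEF2 moves the ribosome on by a codon. Phosphorylation of eIF2 alpha slows initiation, and phosphorylation of eEF2 by eEF2 kinase slows elongation. S6 itself is phosphorylated by kinases downstream of mTORC1 and ERK, pathways that also act on eIF4B, on the eIF4E-binding proteins and on eEF2 kinase. Many mRNAs of translation factors carry a pyrimidine tract at their 5′ end, known as a TOP tract, through which mTORC1 controls their translation.

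Because the precipitated protein is part of the mTORC1 pathway, the starts of the members were searched for such tracts. RefSeq promoter windows on GRCm38.p6, each 250 bases before and 50 after an annotated start, were matched by symbol for 51 of the 67 members. The search took a C followed by further bases that are each C or T, at least 8 in all, read on the gene's strand only. The run was counted from the first C that lay between 5 bases before the start and base 20 after it. Any C or T of the same tract before that C was not counted. Such a run was found in 10 of the 51 matched members (19.6%) and in 9.84% of all 27025 genes with a window. A separate search asked for a C at base 1 followed by at least 4 bases that are each C or T, without the minimum of 8. That shorter form was found in 2 members and in 3.01% of all genes. Of these 10, 5 are given as examples, chosen for members described below and not as a complete set, with 20 bases before and 30 after the annotated start. The run as counted is in capitals. In Eif2b5 the tract of C and T begins further upstream, in small letters, so the capitals are only a part of it.
Eif3f, chr7:108934395-108934444, plus strand: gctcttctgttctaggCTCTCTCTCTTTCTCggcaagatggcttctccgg
Eif2s3x, chrX:94212622-94212671, minus strand: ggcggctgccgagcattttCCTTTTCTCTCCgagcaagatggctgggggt
Eif2s3y, chrY:1010575-1010624, plus strand: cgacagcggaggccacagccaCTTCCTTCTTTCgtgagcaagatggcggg
Eif2b5, chr16:20498797-20498846, plus strand: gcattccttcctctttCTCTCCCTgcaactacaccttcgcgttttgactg
Eif3k, chr7:28981859-28981908, minus strand: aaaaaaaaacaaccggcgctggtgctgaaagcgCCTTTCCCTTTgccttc
These runs are descriptions of the annotated windows and were not tested for function. Of the 10 members with a run, 6 had a positive log2 fold change, pup exposure over control exposure, with a median of 0.061. Of the 41 matched members without one, 18 had a positive value and their median was -0.042. Members with the run lay on both sides of 0, from Eif2s3x at 1.0 to Eif3k at -0.98.

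The comparison asked which translation factors were more or less represented in the precipitate after males met pups. In edgeR's quasi-likelihood test no member passed an adjusted p of 0.05. The count was 0 of 65 in both directions, beside 0% of the 15498 genes tested, and the smallest adjusted p of a member was 0.405. Before adjustment, 2 members had a p under 0.05 with higher values (Eif4g2 and Eif2ak3) and 4 with lower values (Eif2b4, Eif3k, Eif4a3 and Eif1ad). That is 3.08% of members against 6.31% of all genes tested in the higher direction, and 6.15% against 4.67% in the lower. DESeq2 called 0 members, beside 0.406% higher and 0.626% lower of the 12301 genes to which it gave an adjusted p. Eif2s3x, Eif3j1 and Eif4ebp3 had no adjusted p there and could not be called. The limma-voom fit called 0 members, beside 0.00645% of the 15498 genes tested higher and 0.0452% lower. Without adjustment, DESeq2 put 2 members above and 8 below at the same threshold, beside 4.85% and 4.69% of all genes with a p. For limma-voom these were 2 and 6 members, beside 5.1% and 5.43% of all genes. The median log2 fold change of the members was -0.10 and that of all genes tested 0.030, and 29 of 65 members had a positive value, beside 51.5% of all genes. In a bulk precipitate analysed without input RNA, fewer cells of a type, less RNA per cell and less pull-down of their ribosomes cannot be told apart.

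**Figure D1:**
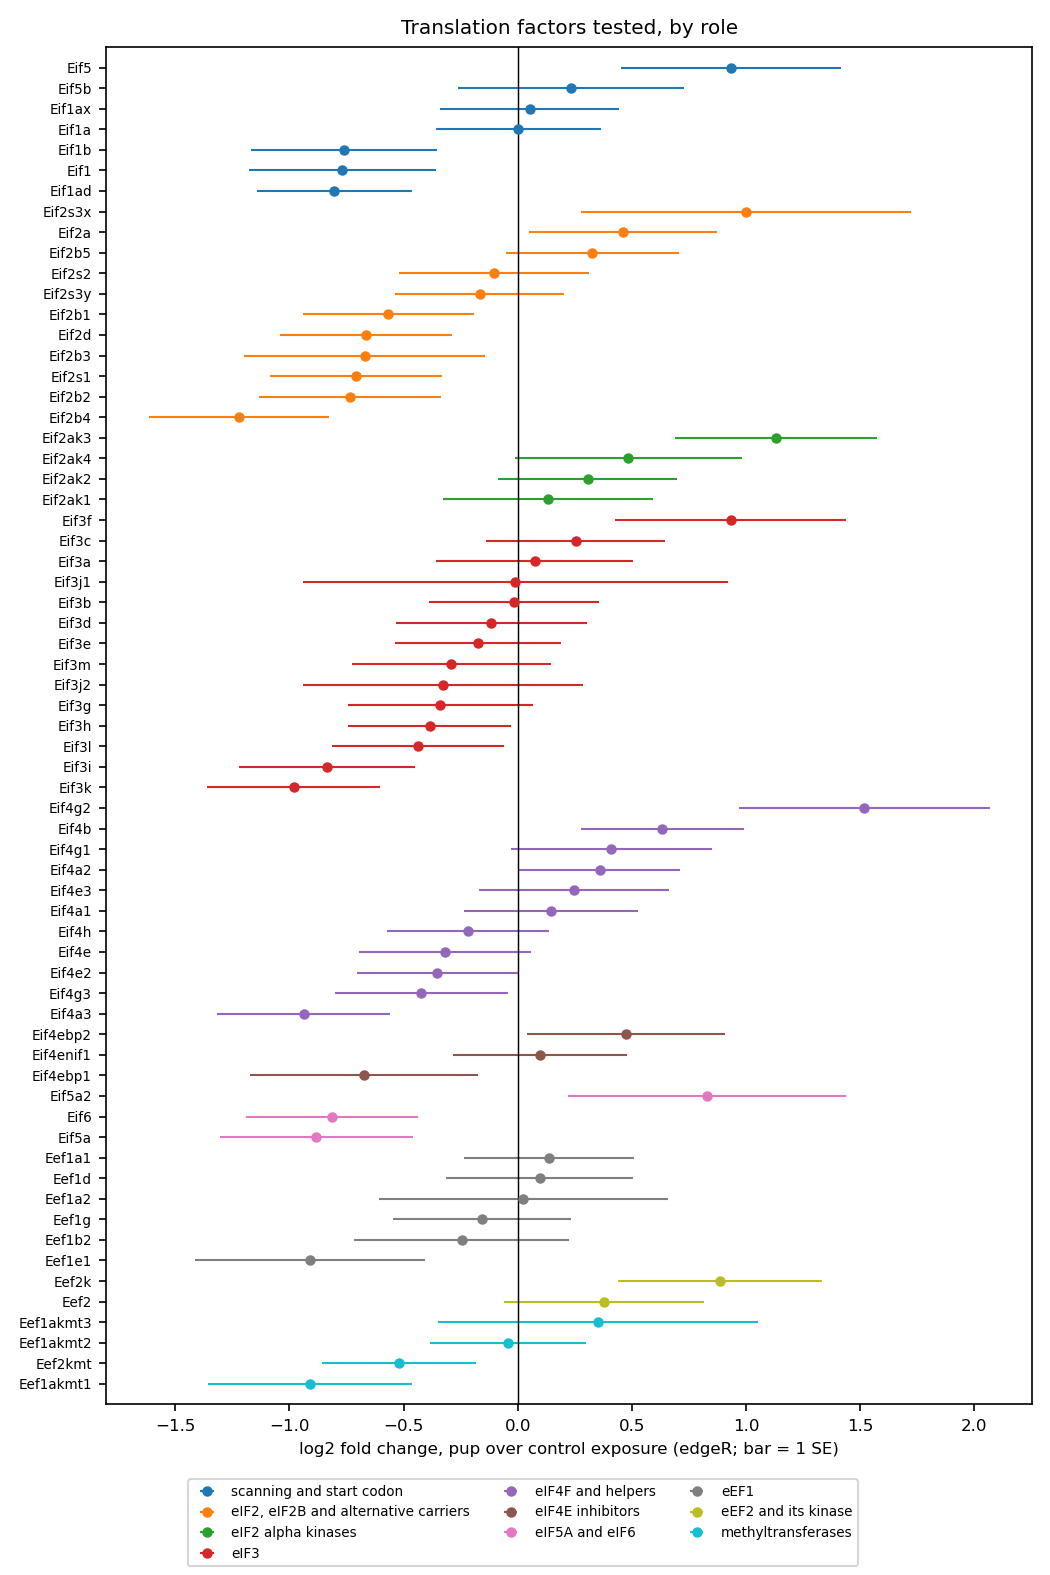
Log2 fold change of each of the 65 members tested, pup exposure over control exposure, in edgeR (points, bars 1 SE), grouped and coloured by role, with gene symbols on the vertical axis. Values run from -1.22 for Eif2b4 to 1.52 for Eif4g2, and no member passed the adjusted threshold.

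Groups did not overlap in 16 of 65 members, beside 19.8% of all genes tested. In 12 of 65 members (18.5%) every pup exposure library lay below every control exposure library, beside 9.6% of all genes tested. In 4 members (6.15%) every pup exposure library lay above, beside 10.1% of all genes. The 4 were Eif2ak3, Eif4b, Eif4a2 and Eif2s3x. No test was run on these shares, and the fold changes of the members followed their transcript length, as described further on.

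The whole group took a small part of each library. Members held 0.599%, 0.546% and 0.348% of counts in control libraries and 0.559%, 0.754% and 0.492% in pup libraries. The groups overlapped (0.498% ± 0.132 and 0.601% ± 0.136, SD, n = 3 each; two-sided exact permutation test, p = 0.5, where the smallest p the design allows is 0.1). With the 50 most abundant genes left out of the total, the shares were 1.21%, 1.22% and 1.20% in control libraries and 1.27%, 1.32% and 1.21% in pup libraries (exact permutation p = 0.3). Over this total control exposure replicate 3 lay close to its group. In that library, with a TMM factor of 0.605, the 8 nasal gland markers that had a row summed to 912610 CPM, against 191250 to 462280 CPM in the other 5 libraries. These CPM are scaled by the TMM factors and are not shares of library counts.

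Levels between genes were compared per length, as CPM per kilobase of the longest annotated transcript. On that scale Eif5a was at 398 in control libraries and 216 in pup libraries, Eif1 at 383 and 225, Eef1a1 at 236 and 259, and Eef2 at 111 and 145. These 4 genes stood above all other members. At the other end were Eif3j1 (0.378 and 0.369) and Eif2s3x (0.564 and 1.11). Eif4ebp3, an eIF4E-binding protein, had 0, 1 and 0 counts in control libraries and 0, 3 and 2 in pup libraries. Eif4e1b, an oocyte form of the cap-binding protein, had 0 counts in all 6 libraries, and 3 counts, the limit that a count of 0 allows, would be 0.106 to 0.468 CPM.

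Reads from near-identical copies limit some of these levels. Of the 50-base words of the longest transcript, the median member shared 3.16% with a transcript of another gene, pseudogenes included. The share was 60.6% in Eef1a1, 64.3% in Eef1g, 36.2% in Eif2s3x, 33.3% in Eif4a1 and 31.6% in Eif1, and 12 members were above 20%. Eif3j1 and Eif3j2 shared 39.4% of the words of Eif3j1 and 90.8% of those of Eif3j2 with each other. How the counting treated such reads is not given in the sources used here, so levels of these genes are uncertain.

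Among the factors of scanning and start codon choice, 7 members were tested, 4 with a positive and 3 with a negative log2 fold change (median 0.0022). Eif1ad, an eIF1A domain protein of the nucleus, was at 71.0, 69.5 and 75.6 CPM in control libraries and at 49.2, 34.1 and 40.5 CPM in pup libraries. The groups did not overlap, and the replicates in control libraries lay close together. Its log2 fold change was -0.80 (SE 0.34, edgeR adjusted p = 0.447). Eif1, which guards the stringency of start codon choice, was at 396, 451 and 671 CPM and then at 289, 220 and 382 CPM, again without overlap (log2 fold change -0.77, SE 0.41, adjusted p = 0.502 in edgeR). Its paralog Eif1b had a like value of -0.76 (SE 0.41), with groups that overlapped. Eif5, which triggers GTP hydrolysis by eIF2, was the member of this group with the highest value. Eif5 was at 63.1, 56.7 and 115 CPM in control libraries and at 254, 105 and 90.2 CPM in pup libraries. Pup exposure replicate 1 was far above the other 5 libraries, and the groups overlapped (log2 fold change 0.93, SE 0.48, edgeR adjusted p = 0.492). Without that replicate the value was 0.32.

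eIF2 is the carrier of the initiator tRNA, and eIF2B is the exchange factor that recharges it with GTP and the point at which stress signals act. Of 11 members of these complexes and of the alternative carriers, 8 had a negative and 3 a positive log2 fold change, with a median of -0.57. Among the 5 eIF2B subunits the median was -0.67, and 4 were negative. With the length correction described further on, both medians were -0.30, with the same numbers of negative values. Eif2b4, the delta subunit, had the smallest p of all members. It was at 52.4, 32.6 and 29.1 CPM in control libraries and at 13.1, 15 and 20.8 CPM in pup libraries. Each pup exposure library was below each control exposure library (log2 fold change -1.22, SE 0.39, edgeR unadjusted p = 0.00933, adjusted p = 0.405). The gene (ENSMUSG00000029145) lies on chromosome 5 from 31187558 to 31193430 on the minus strand (GRCm38).

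The other regulatory subunits of eIF2B had smaller differences. Eif2b2, the beta subunit, had a log2 fold change of -0.73 (SE 0.40) and overlapping groups, while Eif2b1, the alpha subunit, had -0.57 (SE 0.37) and groups that did not overlap. With the length correction these values were -0.30 and -0.25. The catalytic epsilon subunit Eif2b5 was the exception in sign at 0.33 (SE 0.38), with 15.2, 14.3 and 20.3 CPM in control libraries and 23.1, 21.3 and 18 CPM in pup libraries. Its partner Eif2b3, the gamma subunit, spread widely within the control group, at 33.0, 18 and 9.84 CPM, and had -0.67 (SE 0.53). Without control exposure replicate 1 its value was -0.12, without pup exposure replicate 1 -0.35, and without control exposure replicate 3 -1.02. Per kilobase the subunits were at 26.7 (Eif2b2), 18.8 (Eif2b4), 13.2 (Eif2b1), 6.5 (Eif2b5) and 5.40 (Eif2b3) in control libraries. Eif2s1, which encodes eIF2 alpha, the subunit that the stress kinases phosphorylate, was at 43.4, 36.0 and 41.9 CPM and then at 15.5, 31.5 and 27.3 CPM. The groups did not overlap (log2 fold change -0.71, SE 0.38, edgeR adjusted p = 0.502).

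The gamma subunit of eIF2 has an X-linked and a Y-linked gene, Eif2s3x and Eif2s3y. Shares within a gene family are of counts and serve to compare libraries, and mean shares per kilobase stand beside those read between genes. Where paralogs differ in length, a share can also carry the length trend of each library, described further on. Division by a fixed length does not remove that trend. Nearly all counts of the pair were from Eif2s3y, with 96.5%, 97.1% and 94.1% in control libraries and 93.4%, 87.5% and 90.3% in pup libraries. The shares did not overlap (two-sided exact permutation test, p = 0.1, the smallest the design allows, and 0.367 after Benjamini-Hochberg adjustment over 11 paralog shares). Per kilobase the mean shares of Eif2s3y were 96.5% and 91.7%. The longest transcript has 3647 bases in Eif2s3x and 3114 in Eif2s3y. Eif2s3x was listed with 13 to 133 counts in a library, at 1.57, 1.17 and 3.44 CPM and then 4.02, 4.71 and 3.46 CPM. Its share of words held in common with other genes makes that low level uncertain.

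The Eif2ak kinases phosphorylate eIF2 alpha, each under another stress. All 4 members had a positive log2 fold change, from 0.13 to 1.13, and 1 of them had an unadjusted p under 0.05. With the length correction described further on, 2 were positive and 2 negative (median 0.030, against 0.40), with Eif2ak1 at -0.20 and Eif2ak2 at -0.012. The kinase past the threshold was Eif2ak3, known as PERK, the kinase of the endoplasmic reticulum. It was at 6.66, 7.62 and 14.2 CPM in control libraries and at 16.6, 24.7 and 20.9 CPM in pup libraries. Every pup exposure library was above every control exposure library, although control exposure replicate 3 came close to pup exposure replicate 1 (log2 fold change 1.13, SE 0.44, edgeR unadjusted p = 0.0252, adjusted p = 0.424). Eif2ak4, known as GCN2, the sensor of uncharged tRNA, had 0.48 (SE 0.50). The double-stranded RNA sensor Eif2ak2 (PKR) was at 18.6 to 33.9 CPM in control libraries and 21.9 to 37.4 CPM in pup libraries, and the haem-regulated Eif2ak1 (HRI) at 11.1 to 19.6 and 8.63 to 21.5 CPM. In both the groups overlapped. Eif2ak3 (ENSMUSG00000031668) lies on chromosome 6 from 70844515 to 70905245 on the plus strand (GRCm38).

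**Figure D2:**
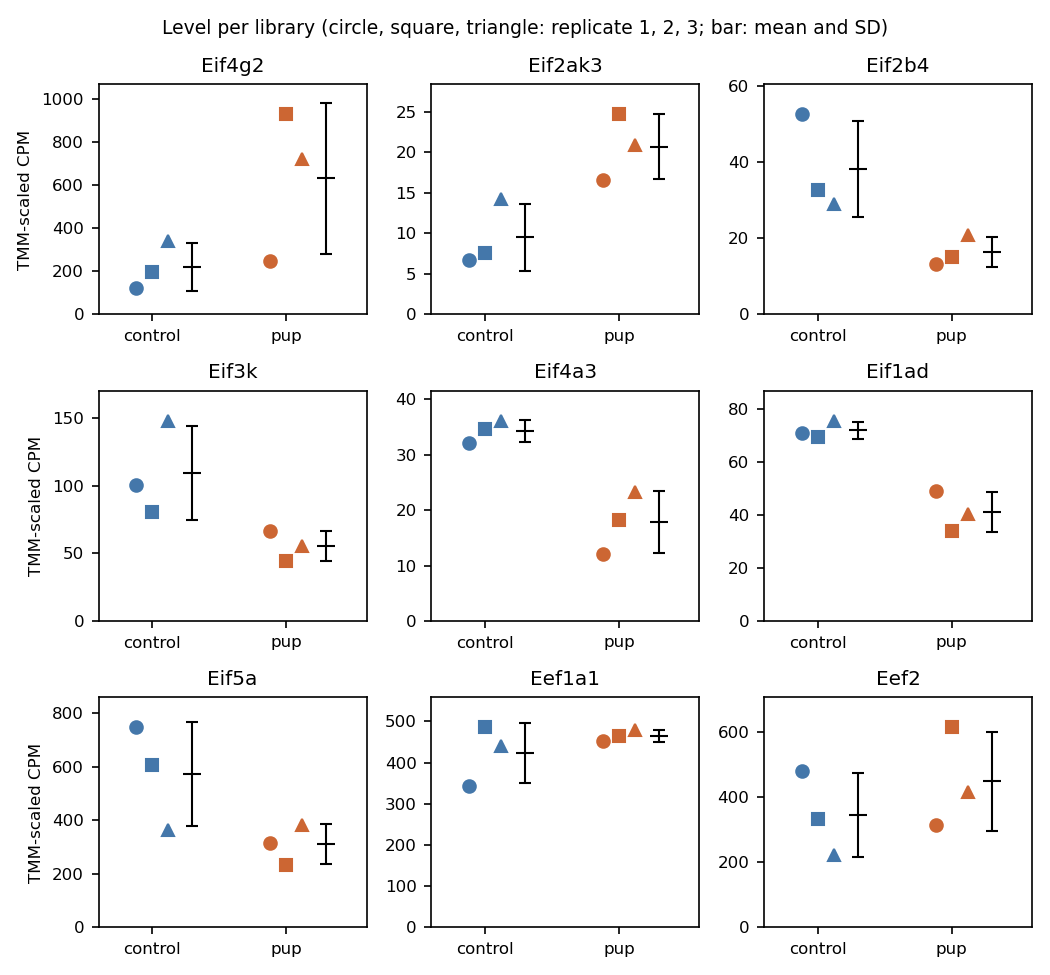
TMM-scaled CPM of 9 members in each library (vertical axis from 0), by exposure, with circle, square and triangle for replicates 1, 2 and 3 and a bar for the mean and SD (n = 3). Eif2ak3, Eif2b4, Eif3k, Eif4a3 and Eif1ad separate the groups, while Eif4g2, Eif5a, Eef1a1 and Eef2 overlap.

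eIF3 is the large scaffold that binds the small subunit and keeps it open for mRNA. Its 14 members had 3 positive and 11 negative log2 fold changes, with a median of -0.23 and a range from -0.98 to 0.93. With the length correction 7 were positive and 7 negative (median -0.10). Eif3k, a peripheral subunit, was at 100, 80.5 and 148 CPM in control libraries and at 66.8, 44.6 and 55.1 CPM in pup libraries. The groups did not overlap (log2 fold change -0.98, SE 0.38, edgeR unadjusted p = 0.0240, adjusted p = 0.424). Eif3i, a WD-repeat subunit, showed the same separation, with 82.7, 97.6 and 152 CPM and then 76.2, 48.7 and 61.4 CPM (log2 fold change -0.84, SE 0.38, adjusted p = 0.455 in edgeR). Eif3f stood at the other end of the complex. It was at 16.3, 14.4 and 24.2 CPM and then at 63.2, 15.9 and 25.6 CPM. Only pup exposure replicate 1 was well above the rest, and without it the log2 fold change of Eif3f went from 0.93 (SE 0.51) to 0.19. Eif3a, the largest subunit, was at 499, 345 and 266 CPM in control libraries and at 494, 437 and 238 CPM in pup libraries, nearly the same range in both groups. Per kilobase, subunits of this complex ran in control libraries from 88.8 (Eif3h) and 72.2 (Eif3a) down to 7.29 (Eif3f), Eif3j1 and Eif3j2 aside.

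Within eIF4F, the cap-binding and helicase complex, and its helpers, 6 of 11 tested members were positive and 5 negative (median 0.15). Eif4g2 had the largest log2 fold change of all members. It encodes DAP5, an eIF4G relative that lacks the eIF4E-binding part and serves cap-independent initiation. It was at 124, 195 and 342 CPM in control libraries and at 246, 926 and 718 CPM in pup libraries. Replicates 2 and 3 in pup libraries were above all other libraries, and replicate 1 lay within the control range (log2 fold change 1.52, SE 0.55, edgeR unadjusted p = 0.0175, adjusted p = 0.424). Eif4g2 (ENSMUSG00000005610) lies on chromosome 7 from 111067750 to 111083030 on the minus strand (GRCm38).

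Of its relatives, Eif4g3 had a log2 fold change of -0.42 (SE 0.38), and Eif4g1, the main scaffold of eIF4F, was at 22.3 to 76.0 CPM in control libraries and 53.2 to 72.0 CPM in pup libraries. Within the family, Eif4g2 held 64.2%, 54.1% and 75% of counts in control libraries and 66.1%, 87.9% and 88.8% in pup libraries. The ranges overlapped through replicate 1 in pup libraries (two-sided exact permutation test, p = 0.2, adjusted p = 0.44), and per kilobase the mean shares were 61.2% and 77.8%. Eif4a3, the helicase of the exon junction complex, was at 32.1, 34.7 and 36.1 CPM and then at 12.1, 18.3 and 23.3 CPM. Here the groups did not overlap and the control libraries agreed closely (log2 fold change -0.94, SE 0.38, edgeR adjusted p = 0.437). The share of words of Eif4a3 found in other genes was 24.4%.

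The helicase of eIF4F itself is encoded by Eif4a1 and Eif4a2. Eif4a2 was at 103, 112 and 108 CPM in control libraries and at 121, 171 and 122 CPM in pup libraries, a small difference without overlap (log2 fold change 0.36, SE 0.35, edgeR adjusted p = 0.704). It held 83.6% ± 2.34 of the pair's counts in control libraries and 85.2% ± 4.62 in pup libraries (SD, n = 3 each; exact permutation p = 0.7), and 85.7% and 87.1% per kilobase. Eif4b, which stimulates this helicase and is a substrate of S6 kinase, was at 114, 105 and 134 CPM and then at 178, 216 and 153 CPM. All 3 pup exposure libraries were above the control libraries, with a log2 fold change of 0.63 (SE 0.36, adjusted p = 0.521 in edgeR).

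The eIF4E-binding proteins hold the cap-binding protein inactive until mTORC1 phosphorylates them. Eif4ebp1 was at 31.7, 51.6 and 76.3 CPM in control libraries and at 47.1, 12.9 and 39.9 CPM in pup libraries. The ranges overlapped, and its log2 fold change was -0.67 (SE 0.50). Eif4ebp2, the form known from brain, had 0.47 (SE 0.43), with 8.39 to 18.2 CPM and 15.5 to 18.4 CPM. Its share of the family's counts was 20.9%, 26.0% and 11.3% in control libraries and 28.1%, 54.4% and 29.3% in pup libraries. These shares did not overlap, and pup exposure replicate 2 was the highest (two-sided exact permutation test, p = 0.1, adjusted p = 0.367). Without that replicate the difference of 17.9 percentage points was 9.28, and per kilobase it was 9.96, from 7.79% to 17.8%. The longest transcript has 5784 bases in Eif4ebp2 and 1997 in Eif4ebp1, and the part of length in this share was not tested.

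**Figure D3:**
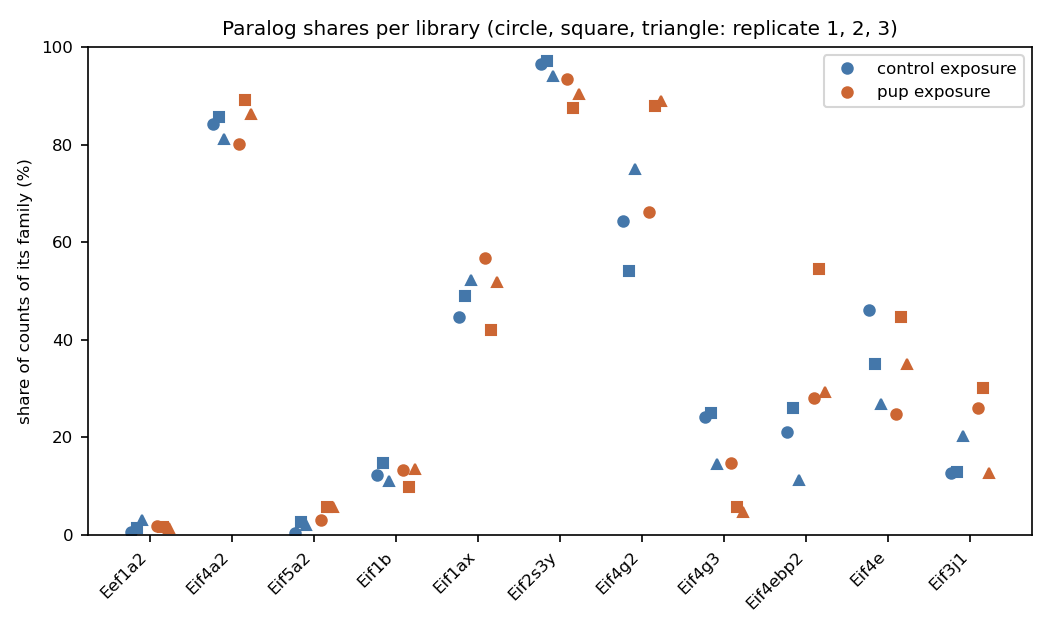
Share of counts that 1 gene held within its family in each library (vertical axis, 0% to 100%), for 11 shares, coloured by exposure, with circle, square and triangle for replicates 1, 2 and 3. The shares of Eif5a2, Eif2s3y and Eif4ebp2 do not overlap between groups, the others do. Each of these had an exact permutation p of 0.1, the smallest the design allows, and an adjusted p of 0.367 over the 11 shares. Shares are not corrected for the length trend of each library.

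Eif5a encodes eIF5A, the hypusine-bearing factor that helps ribosomes through difficult peptide bonds. It was at 747, 606 and 364 CPM in control libraries and at 315, 235 and 383 CPM in pup libraries. Control exposure replicate 3 lay inside the range of the pup exposure libraries (log2 fold change -0.88, SE 0.42, edgeR adjusted p = 0.466). Its paralog Eif5a2 held 0.366%, 2.59% and 1.94% of the pair's counts, and 2.89%, 5.67% and 5.63% in pup libraries. The shares did not overlap (two-sided exact permutation test, p = 0.1, adjusted p = 0.367), with means per kilobase of 0.474% and 1.40%, while the CPM of Eif5a2 did, at 2.74 to 16.1 and 9.38 to 22.8. Its log2 fold change was 0.83 (SE 0.61). The longest transcript has 5027 bases in Eif5a2 and 1437 in Eif5a, and the part of length in the share was not tested. Eif6, which keeps the ribosomal subunits apart, was at 41.5, 67.8 and 85.5 CPM and then at 40.1, 30.7 and 39.9 CPM. The groups were separated by a narrow gap (log2 fold change -0.81, SE 0.38, edgeR adjusted p = 0.457).

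No elongation factor had an unadjusted p under 0.05. The 6 members of eEF1 had log2 fold changes with a median of -0.066, and none of them separated the groups. Eef1a1, the main form of eEF1A, was at 343, 485 and 441 CPM in control libraries and at 452, 464 and 480 CPM in pup libraries. The pup exposure libraries lay within the control range (log2 fold change 0.14, SE 0.37, edgeR adjusted p = 0.904). Eef1a2, the form that neurons and muscle switch to as they mature, held 1.61% ± 1.21 and 1.56% ± 0.274 of the pair's counts (SD, n = 3 each; exact permutation p = 0.9). Eef1e1, a scaffold protein of the tRNA synthetase complex, had the lowest value of the group at -0.91 (SE 0.50), with 12.1 to 34.2 CPM and 7.99 to 17.7 CPM.

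Eef2 was at 478, 333 and 222 CPM in control libraries and at 315, 613 and 415 CPM in pup libraries. The ranges overlapped broadly (log2 fold change 0.38, SE 0.44, edgeR adjusted p = 0.753). Eef2k, the kinase that inactivates eEF2, was at 23.2, 24.6 and 9.69 CPM and then at 22.7, 45.8 and 38.1 CPM. Both genes were lowest in control exposure replicate 3 and highest in pup exposure replicate 2, and Eef2k had a log2 fold change of 0.89 (SE 0.45, adjusted p = 0.487 in edgeR). Without control exposure replicate 3 the value of Eef2k was 0.55, and with the length correction 0.41. Among the lysine methyltransferases of eEF1A and eEF2, 1 of 4 was positive and 3 were negative. In 2 of them every pup exposure library lay below every control exposure library, beside 9.6% of all genes tested. With the length correction 2 were positive and 2 negative (median 0.093, against -0.28). The lowest was Eef1akmt1, at 31.7, 29.5 and 59.8 CPM and then at 27.5, 11.4 and 25.4 CPM (log2 fold change -0.91, SE 0.45, edgeR adjusted p = 0.475).

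Fold changes of the members followed the length of their transcripts. Across the 65 members Spearman's rank correlation between log2 fold change and the length of the longest annotated transcript was 0.61, and across 15308 genes with a length it was 0.45 (genes share the libraries and are no replicates). The 32 members shorter than the members' median of 2856 bases had 25 negative and 7 positive values with a median of -0.41. The 33 longer ones had 11 negative and 22 positive values with a median of 0.13. Of the 12 members whose pup exposure libraries all lay below the control libraries, 10 were among the shorter. Tested protein-coding genes showed the same order, with a median of -0.53 in the shortest of 5 equal classes of length and 0.51 in the longest.

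**Figure D4:**
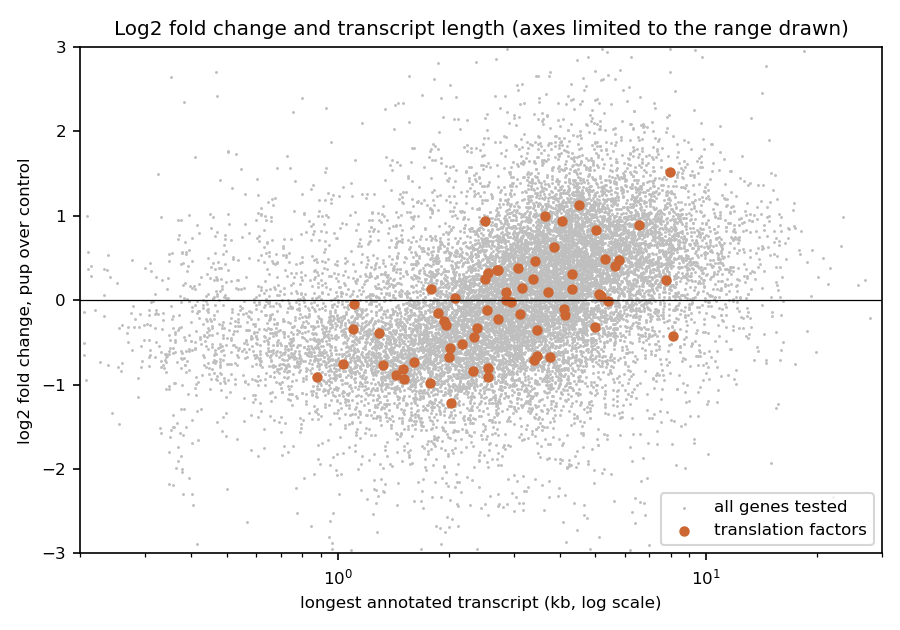
Log2 fold change, pup over control exposure, against the length of the longest annotated transcript in kilobases (log scale), for all genes tested with a length (grey) and for the members (coloured). Short members lie mostly below 0 and long members mostly above it, as do genes in general.

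The relation was strongest in 2 libraries. Over members, the rank correlation between length and a library's log2 CPM, taken as the difference from each gene's mean, was 0.69 in pup exposure replicate 2 and -0.44 in control exposure replicate 3. In the other 4 libraries it ran from -0.30 to 0.17, negative in both control and positive in both pup exposure libraries. In pup exposure replicate 2 the shorter members had a median of -0.65 and the longer ones of 0.21. These are also the libraries with the highest and the lowest TMM factor, 1.39 and 0.605. Without both of them, an alternative chosen after seeing the data, the rank correlation over the members was 0.36, the members' median log2 fold change 0.067, and 7 members had an unadjusted p under 0.05. Of these, 4 were positive and 3 negative, beside 2.79% and 3.69% of all genes in that fit. Eif2ak3, Eif3f, Eif4g2 and Eif5 had positive values and Eif2b3, Eif2b4 and Eif5a negative ones.

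**Figure D5:**
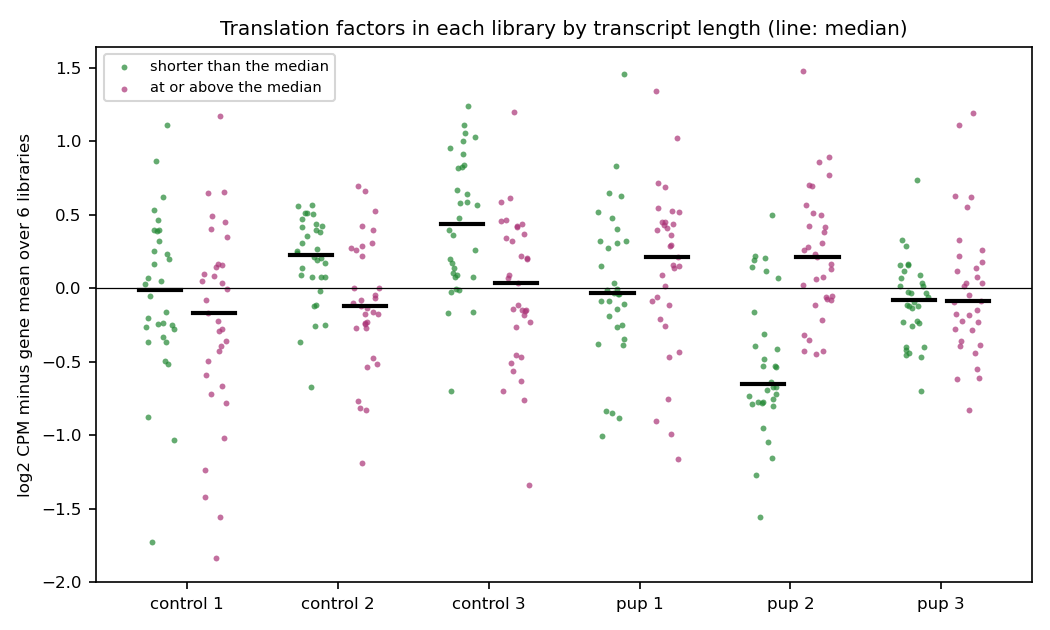
Log2 CPM of each member minus its mean over the 6 libraries (vertical axis), by library, for members shorter than the median length and for the others, with a line at each median. The shorter members are lowest in pup exposure replicate 2 (median -0.65) and highest in control exposure replicate 3 (median 0.44).

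A fit with a length trend removed from each library, also chosen after seeing the data, gave other values for several members. At an unadjusted p under 0.05 no member was higher and 4 were lower. Those 4 were Eif2b4 (log2 fold change -0.90, SE 0.34), Eif2s1 (-0.86, SE 0.33), Eif2d (-0.82, SE 0.32), an alternative tRNA carrier, and Eif4g3 (-0.89, SE 0.32). Among all genes tested, 4.43% were lower and 3.28% higher at that threshold. None passed when adjusted over all genes (smallest edgeR adjusted p of a member 0.551), where 0.0327% of all genes were called lower and 0.00653% higher. Eif4g2 was then at 1.03 (SE 0.51), Eif2ak3 at 0.76 (SE 0.41), Eif3k at -0.58 (SE 0.33) and Eif1 at -0.27 (SE 0.31). Of the 6 members past an unadjusted p of 0.05 in the first fit, Eif2b4 alone was past it here. Eif1ad was just short of it, at -0.67 (SE 0.30, edgeR unadjusted p = 0.0504), and Eif4a3 was at -0.44 (SE 0.35). Such a fit also removes any difference between the exposures that is tied to length.

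Related groups were set beside the members. Cytosolic ribosomal protein genes had 76 tested, 39 positive and 37 negative, with a median of 0.015, and 0 passed an unadjusted p of 0.05. With the length correction 64 were positive and 12 negative, with a median of 0.43, and 2 were higher at that threshold. Of all genes in that fit, 7626 were positive and 7682 negative (median -0.0025), and 3.28% were higher at that threshold. Their median length was 1.11 kilobases, and protein-coding genes under 1 kilobase as a whole had a median of -0.50. Of 50 other translation genes (termination, recycling, mRNA-binding helpers, modifying enzymes, mitochondrial factors and targets of eIF2 alpha phosphorylation), all were tested, 21 were positive and 29 negative, and 0 passed over all genes. At an unadjusted p under 0.05, 3 were higher (6%, beside 6.31% of all genes tested) and 2 lower (4%, beside 4.67%). Paip1, a partner of poly(A)-binding protein, was at 7.13, 11.6 and 21.6 CPM and then at 21.6, 72.5 and 56.9 CPM (log2 fold change 1.92, SE 0.53, edgeR adjusted p = 0.395). Ppp1r15b, which directs the phosphatase of eIF2 alpha, had 1.19 (SE 0.41) and Larp1, a repressor of TOP mRNAs, 1.14 (SE 0.46). The lower ones were Dph7, an enzyme of diphthamide synthesis, at -1.31 (SE 0.53), and Mtrf1, a mitochondrial release factor, at -1.06 (SE 0.48). The 6 targets of eIF2 alpha phosphorylation had 1 positive and 5 negative values (median -0.39), and 3 and 3 with the length correction (median -0.035).

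Markers of other cells were summed in the same libraries. The 7 sustentacular cell markers summed to 3875 to 4490 CPM in control libraries and 1569 to 2286 CPM in pup libraries, without overlap, and 6 of 7 had a negative log2 fold change. The 10 vomeronasal neuron markers summed to 1721 to 2096 CPM and 1721 to 2069 CPM, with 5 positive and 5 negative. All listed markers of both cell types had counts. The part of the sustentacular cells, of depth and of transcript length in the members' values was not tested.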

How the data were processed

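RNA of 6 phospho-S6 immunoprecipitates was sequenced. The deposited table holds raw counts per Ensembl gene and library, and GRCm38 is the build named per the submitters' processing notes. Which aligner, counter and gene models the authors used is not given in the sources used here. Input RNA was not analysed here. Genes were named from GENCODE M21 (36723 of 38561 IDs matched). Counts were tested with edgeR 4.0.16 in R 4.3.3 (quasi-likelihood test, filterByExpr at a count of 10 and a total of 15, TMM scaling, Benjamini-Hochberg adjustment over all genes tested, threshold 0.05), with intercept and group. Each SE is the log2 fold change over the square root of F. Alternatives were RLE, upper quartile and no scaling, other filters, DESeq2 1.42.0, limma-voom (limma 3.58.1), thinning to 10590716 counts, a replicate block, and each library left out. After seeing the data, a fit without 2 libraries and a length correction (lowess, span 0.3, as an offset) were added. No library repeats another (chi-square over degrees of freedom 86.2 to 300 within groups). Scripts were tested on simulated data. Sequences are from RefSeq, GRCm38.p6.

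The members and lists were chosen with earlier results of these data known. Genes were named where their unadjusted p was under 0.05, where they had 1 of the 3 smallest p or highest levels of their role group, or where they were listed by name (paralogs, kinases, eIF2B and eIF3 subunits). Eif2d, Dph7 and Mtrf1 were named after their values were seen. Marker lists of glands, red blood cells, muscle, macrophages, endothelium, glia and main olfactory neurons were also counted. Limits of counts of 0 cover counting error only.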

Additional observations from a re-analysis of the deposited data

How the results depend on the processing

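No member passed an adjusted p of 0.05 in any of the fits run, with edgeR, DESeq2 or limma-voom. Of 34 members with a log2 fold change printed above, 30 kept its sign in all of the fits. Those 34 were named partly for a small p, so this count does not describe the other members. Signs also changed among the others, as in Eef1b2 (-0.25, and 0.43 without control exposure replicate 3 and pup exposure replicate 2). Eif3a went from 0.074 to -0.34 with the length correction. Without control exposure replicate 3 and pup exposure replicate 2, Eef2 was at -0.21, Eif4ebp1 at 0.020 and Eif2ak1 at -0.084. Eif2ak1 and Eif2ak2 were at -0.20 and -0.012 with the length correction, and Eif2ak2 was at -0.11 with limma-voom quality weights. The number of members higher at an unadjusted p under 0.05 was 4 with library totals only (beside 8.62% of all genes), 5 without a filter (5.88%), 4 with limma-voom quality weights (7.63%), 4 without those 2 libraries (2.79%) and 0 with the length correction (3.28%), and ran from 0 (without control exposure replicate 1, 4.03%) to 3 with single libraries left out. The number lower was 0 with library totals only (1.08%), 8 in DESeq2 (4.69%) and 9 with limma-voom quality weights (6.26%), and, leaving out 1 library at a time, between 1 (without pup exposure replicate 2, beside 2.59% of genes) and 6 (pup exposure replicate 1 left out, 4.98%). The members' median log2 fold change was 0.24 with library totals only, where the median of all genes moved by 0.28, 0.067 without the 2 libraries, and -0.20 to -0.000034 with single libraries left out. Then Eef2 ran up to 0.70, Eif4ebp1 down to -1.01 and Eif2ak1 from -0.12 to 0.43. Over all genes, edgeR called 0, against 120 without a filter, 127 in DESeq2, 8 in limma-voom, 12 with quality weights and 6 with the length correction. With library totals only, 1336 genes had a positive and 168 a negative value with an unadjusted p under 0.05, against 978 and 723. With single libraries left out, the paralog share of Eef1a2 differed by -0.59 to 0.60 percentage points, of Eif4a2 by -0.39 to 4.13, of Eif1b by -1.31 to 0.72, of Eif1ax by -1.66 to 5.68 and of Eif4e by -6.15 to 3.86, so none of these has a stable sign.

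The replicate numbers were not shown to pair the libraries: same-numbered libraries correlated at -0.025, 0.18 and 0.061 in their deviations from the group means. With the replicate block, 2 members had a positive and 5 a negative value with an unadjusted p under 0.05 (beside 5.17% and 4.36% of all genes), and the median of all members was -0.055. Depth, separated by group, limits the members with few counts, such as Eif3j1 and Eif2s3x.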

Other observations

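Marker lists outside the comparisons gave these summed levels. Red blood cell markers summed to 205 to 591 CPM after control exposure and 52.6 to 168 CPM after pup exposure, with 4 of 4 tested members negative. Macrophage markers were at 119 to 530 CPM and 53.3 to 1117 CPM, highest in pup exposure replicate 3. Muscle markers were at 901 to 1296 and 916 to 1018 CPM, glial markers at 85.4 to 95.0 and 92.0 to 105 CPM, endothelial markers at 4.94 to 10.4 and 9.94 to 14.1 CPM, and main olfactory neuron markers at 15.6 to 47.7 and 14.9 to 29.6 CPM. Nasal gland markers were negative in 7 of 8 tested members.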
